A study of Mus musculus with 12 samples.

Results

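The genes followed here are 5 that encode secreted or transport proteins of the fibrocytes of the spiral ligament: Coch, Otos, Otor, Slc4a11 and Cemip. They were found by symbol in the annotation of the array platform, which gave 5 of 19057 genes and 9 of 45281 probes: 3 for Cemip, 2 each for Coch and Slc4a11, and 1 each for Otos and Otor. Their levels were read in cochleae of C57BL6j mice, an inbred strain that loses hearing early, at 4, 15 and 45 weeks of age. All mice were kept under standard laboratory conditions, and the vestibular organs had been taken off. Each age had 2 pools of cochlear RNA (a and b), made in groups of 5 per the design text, and each pool was hybridised as 2 technical repeats to Illumina mouse BeadChips, which gave 12 arrays. No group was treated, and whether a pool mixed the sexes is not labelled.

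The spiral ligament lines the lateral wall of the cochlear duct. Its fibrocytes take up potassium that leaves the sensory epithelium and pass it through gap junctions towards the stria vascularis, which returns it to the endolymph, and they also make the matrix of the ligament. Cochlin, the product of Coch, is an abundant matrix protein of the ligament and the spiral limbus, and mutations of its human gene cause a late-onset hearing and balance disorder. Otospiralin (Otos) and otoraplin (Otor) are small secreted proteins of the cochlea, and mice that lack otospiralin hear poorly. Slc4a11 encodes a membrane transporter of the bicarbonate transporter family, whose human gene is mutated in a corneal dystrophy with hearing loss. Cemip encodes a protein that binds hyaluronan and takes part in its breakdown.

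Otos and Otor lay higher in both pools at 45 weeks than in both pools at 4 weeks, by 0.55 and 0.66 on the log2 scale. So did 1 of the Slc4a11 probes, by 0.36, and 22.5% of the 22640 probes tested. None of these differences passed limma's test after adjustment (adjusted p = 0.271 for Otos, 0.279 for Otor and 0.322 for Slc4a11). The promoters of Otos and Otor are shown first. The windows run from 250 bases before to 50 bases after the transcription start site, 5′ to 3′ on the strand of the gene, and come from RefSeq on the build GRCm38.p6. Otos lies at chr1:92648792-92649091 on the minus strand and Otor at chr2:143078143-143078442 on the plus strand. Capitals mark the letters TATAAA of a TATA box, the site on which the basal transcription machinery assembles in many tissue-restricted genes.
Otos: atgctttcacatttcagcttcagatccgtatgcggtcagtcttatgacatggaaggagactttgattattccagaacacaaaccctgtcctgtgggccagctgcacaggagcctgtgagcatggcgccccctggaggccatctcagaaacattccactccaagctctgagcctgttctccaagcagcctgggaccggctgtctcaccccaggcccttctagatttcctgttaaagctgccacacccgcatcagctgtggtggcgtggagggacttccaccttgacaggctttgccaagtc
Otor: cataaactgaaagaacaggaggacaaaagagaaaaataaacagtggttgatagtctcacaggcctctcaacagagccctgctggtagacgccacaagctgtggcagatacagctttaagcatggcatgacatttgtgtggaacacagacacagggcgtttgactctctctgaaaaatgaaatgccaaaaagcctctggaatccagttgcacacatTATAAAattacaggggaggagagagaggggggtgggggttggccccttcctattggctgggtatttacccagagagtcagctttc
RefSeq windows were found for 4 of the 5 genes, and Slc4a11 had no entry. The search covered, on both strands, the TATA box (TATAAA), the CCAAT box (CCAAT), the GC box (GGGCGG) and the octamer of POU factors (ATGCAAAT). The Otor window held TATAAA from position -35, counted from the start site at +1, and the Cemip window from position -29. The Coch window held TATAAA on the opposite strand only, from position 4. The GC box was found 3 times in the Coch window and 2 times in the Cemip window, and the CCAAT box once in the Otor window, on the opposite strand from position 17. The Otos window held none of the 4 motifs, and the octamer was in none of the 4 windows. Of 32851 windows of the same length, 13.62% held the TATA box on either strand, 37.41% the CCAAT box, 35.66% the GC box and 1.74% the octamer. GC content was 73.7% in the Coch window and in the Cemip window, 55.0% in the Otos window and 47.3% in the Otor window, against a median of 52.7% over all windows. These matches describe the letters and do not show binding.

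Levels are log2 values on the scale on which the authors had normalized the arrays. The median of each array was 5.89, the lowest value 5.10 and the highest 15.00. Otos and Coch were among the brightest probes of the array. The Otos probe had a mean level of 12.93 over the 6 pools, rank 238 of all probes, and the brighter Coch probe had 12.78, rank 270. The second Coch probe lay at 9.52 (rank 3366) and the brightest Cemip probe at 9.20 (rank 4095). The Slc4a11 probes lay at 7.77 (rank 8539) and 6.99 (rank 11938), and the Otor probe at 7.27 (rank 10570). The other Cemip probes, at 5.59 and 5.53 (ranks 36721 and 40865), lay under the median of all probes and were not tested. A probe's brightness also depends on its sequence, as the gap between the Coch probes shows, so that the ranks give no order of transcript amounts between genes.

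**Figure D1:**
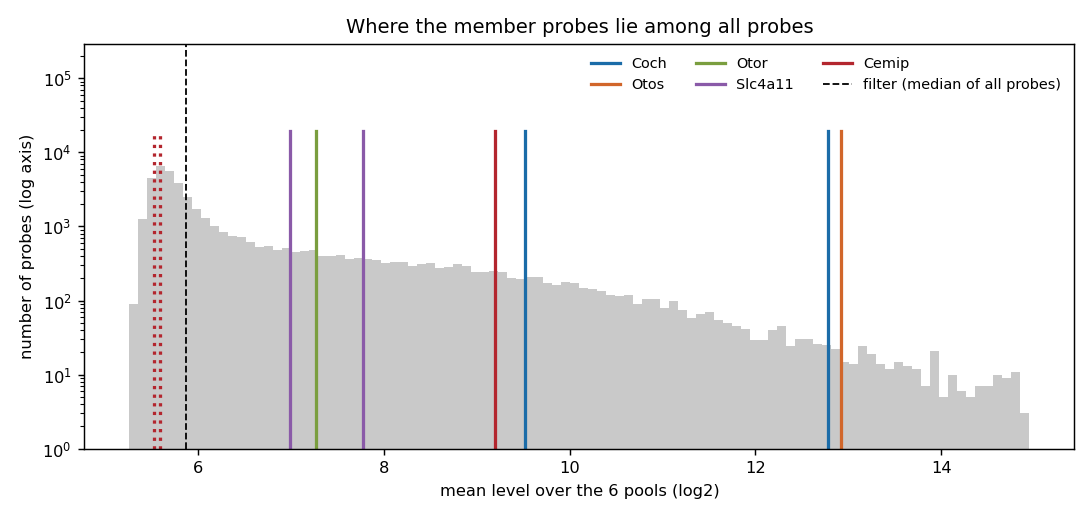
Number of probes (log axis) against their mean level over the 6 pools (log2), with a vertical line for each member probe. Otos at 12.93 and one Coch probe at 12.78 lie near the bright end. The 2 dotted lines are the Cemip probes at 5.59 and 5.53, left of the dashed filter at 5.87.

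By rank at each age, Otos stood at 323 at 4 weeks, 226 at 15 weeks and 192 at 45 weeks. The brighter Coch probe kept a rank of 282, 259 and 278 at the same ages. Otor stood at 12307, 10347 and 9263, and the brighter Slc4a11 probe at 9674, 7430 and 8626.

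The defining markers of these fibrocytes all lay above the filter, though detection above background was not judged. Gjb2, a connexin gene of the fibrocyte network, had a mean level of 12.82, and Slc12a2, the sodium-potassium-chloride cotransporter gene, 12.56. The transcription factor gene Tbx18 lay at 8.08 and Pou3f4, which is needed for the ligament to form, at 6.92. All 4 were tested, and their averaged level was 10.25 and 10.01 in the pools a and b at 4 weeks, 10.28 and 10.10 at 15 weeks, and 9.97 and 9.96 at 45 weeks. Gjb2 and Slc12a2 are also used by other cochlear cells. In RNA of whole cochleae, fewer cells of a type and less RNA per cell cannot be told apart.

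The pools also differed in their sex-linked transcripts, whose part in the results below was not tested beyond a fit with Xist as a covariate. The female transcript Xist read 7.60 for the 45-week pool b and 8.56 for the 4-week pool b, and 5.85 to 5.95 for the other 4 pools. The Y-linked transcript Eif2s3y read 5.65 and 5.53 for the same 45-week and 4-week pools, and 9.54 to 9.81 for the other 4. Both 15-week pools thus read as male, as did pool a of 45 and of 4 weeks, while pool b of those ages read as female. Sex was therefore not balanced between 15 weeks and the other ages. Over the 22640 probes tested, the median gap between single arrays of a pool was 0.14. It was 0.15 between the pool means of an age, and 0.08 to 0.15 between the means of 2 ages. These values average unlike numbers of arrays, so their sizes are not directly comparable. Limma called no probe in any of the 3 comparisons after adjustment (adjusted p under 0.05), while 151, 907 and 1505 were higher and 151, 938 and 1632 lower at an unadjusted p under 0.05 (15 minus 4, 45 minus 15 and 45 minus 4 weeks). With all 12 arrays in the fit and pools as random blocks, 2, 6 and 183 probes were called and no member probe. That fit takes 1 estimated correlation, 0.296, for the arrays of a pool at every probe. It draws on technical repeats and adds no pools, so its p-values rest partly on the spread between arrays of a pool. Nothing in the labels says whether the pools of an age came from separate groups of animals. The sex-linked readings place different animals in pools a and b at 4 and 45 weeks, and leave this unknown at 15 weeks. The p-values of the fit on pool means measure the spread between these pools. With 2 pools against 2, an exact permutation test of one probe cannot give a two-sided p below 0.333.

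The Otos level was higher at each later age. At 4 weeks the arrays read 12.54 and 12.50 for pool a and 12.66 and 12.74 for pool b. At 15 weeks they read 12.96 and 13.02 for pool a and 12.83 and 13.20 for pool b, and at 45 weeks 13.10 and 13.03 for pool a and 13.29 and 13.23 for pool b. The pools of the 3 ages followed each other without overlap, an order that 2.64% of the tested probes shared. All 4 arrays at 45 weeks, and all 4 at 15 weeks, lay above all 4 at 4 weeks, while the arrays at 15 and 45 weeks overlapped.

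The pool means of Otos averaged 12.61 ± 0.13 at 4 weeks, 13.00 ± 0.02 at 15 weeks and 13.16 ± 0.14 at 45 weeks (SD, n = 2 each). The 45-week level exceeded the 4-week level by 0.55 (SE 0.13, 95% interval 0.24 to 0.86), which is 1.47-fold (1.18 to 1.82). This difference was larger than the gaps between the pools of an age (0.18, 0.03 and 0.20) and than the widest gap between arrays of a pool (0.37, in pool b at 15 weeks). It ranked 314 by p among all probes tested and did not pass limma's test after adjustment over them (adjusted p = 0.271). The 15-week level exceeded the 4-week level by 0.39 (SE 0.13, limma adjusted p = 1.00), and the 45-week level exceeded the 15-week level by 0.16 (SE 0.13, limma adjusted p = 0.753). This last step was 0.30 with technical array 1 of each pool alone, 0.019 with technical array 2 alone, 0.062 without the 45-week pool b, 0.26 without the 45-week pool a and 0.094 with the Xist covariate. In all 17 other settings of the fit the 45-week level was above the 4-week level, by 0.46 to 0.65, and with the Xist level as a covariate by 0.59 (limma adjusted p = 0.167).

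Otor showed the widest difference between 45 and 4 weeks of the 5 genes. At 4 weeks the arrays read 7.06 and 6.92 for pool a and 6.79 and 6.91 for pool b. At 15 weeks pool a read 6.96 and 7.13, near the 4-week values, and pool b 7.57 and 7.64, within the 45-week values. At 45 weeks the arrays read 7.38 and 7.56 for pool a and 7.57 and 7.82 for pool b. The 15-week pools were split in this way, and the 4 arrays at 45 weeks lay above the 4 arrays at 4 weeks.

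The Otor pools averaged 6.92 ± 0.10 at 4 weeks, 7.32 ± 0.39 at 15 weeks and 7.58 ± 0.16 at 45 weeks (SD, n = 2 each). The difference between 45 and 4 weeks was 0.66 (SE 0.20, 95% interval 0.19 to 1.13), or 1.58-fold (1.14 to 2.20), and did not pass limma's test (adjusted p = 0.279). With the Xist level as a covariate it was 0.66 (limma adjusted p = 0.239). Between 15 and 4 weeks it was 0.41 (SE 0.20, limma adjusted p = 1.00), less than the gap of 0.56 between the 15-week pools. It was 0.13 without the 15-week pool b and 0.68 without the 15-week pool a. Between 45 and 15 weeks the difference was 0.26 (SE 0.20, limma adjusted p = 0.739), and it was -0.02 without the 15-week pool a and 0.54 without the 15-week pool b.

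The level of Coch at its brighter probe was nearly the same at the 3 ages. At 4 weeks the arrays read 12.82 and 12.59 for pool a and 12.75 and 12.89 for pool b. At 15 weeks they read 12.71 and 12.96 for pool a and 12.78 and 12.88 for pool b, and at 45 weeks 12.67 and 12.75 for pool a and 12.81 and 12.75 for pool b. The arrays of the 3 ages overlapped. The pools averaged 12.76 ± 0.08, 12.83 ± 0.01 and 12.75 ± 0.05 in that order (SD, n = 2 each). The difference of 45 minus 4 weeks was -0.02, with a 95% interval of -0.29 to 0.25, or 0.818-fold to 1.19-fold, and limma's adjusted p was 0.961. This interval is not adjusted for the number of probes.

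At the dimmer Coch probe pool b was above pool a at every age. The arrays read 9.20 and 9.17 for pool a and 9.51 and 9.54 for pool b at 4 weeks, and 9.47 and 9.48 for pool a and 9.66 and 9.72 for pool b at 15 weeks. At 45 weeks they read 9.36 and 9.67 for pool a and 9.73 and 9.74 for pool b. The gap between pools was 0.34, 0.22 and 0.22 in that order, and the arrays of a pool lay within 0.06 of each other except for pool a at 45 weeks. The difference of 45 minus 4 weeks was 0.27 (SE 0.16, limma adjusted p = 0.505), and that of 15 minus 4 weeks was 0.23 (SE 0.16, limma adjusted p = 1.00). Without the 4-week pool a these were 0.10 and 0.062, and without the 4-week pool b 0.44 and 0.40. The second was 0.12 without the 15-week pool b, and 0.39 with the Xist level as a covariate (limma adjusted p = 1.00). Both probes are annotated to the same RefSeq transcript, and their differences of 45 minus 4 weeks were opposite in sign.

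**Figure D2:**
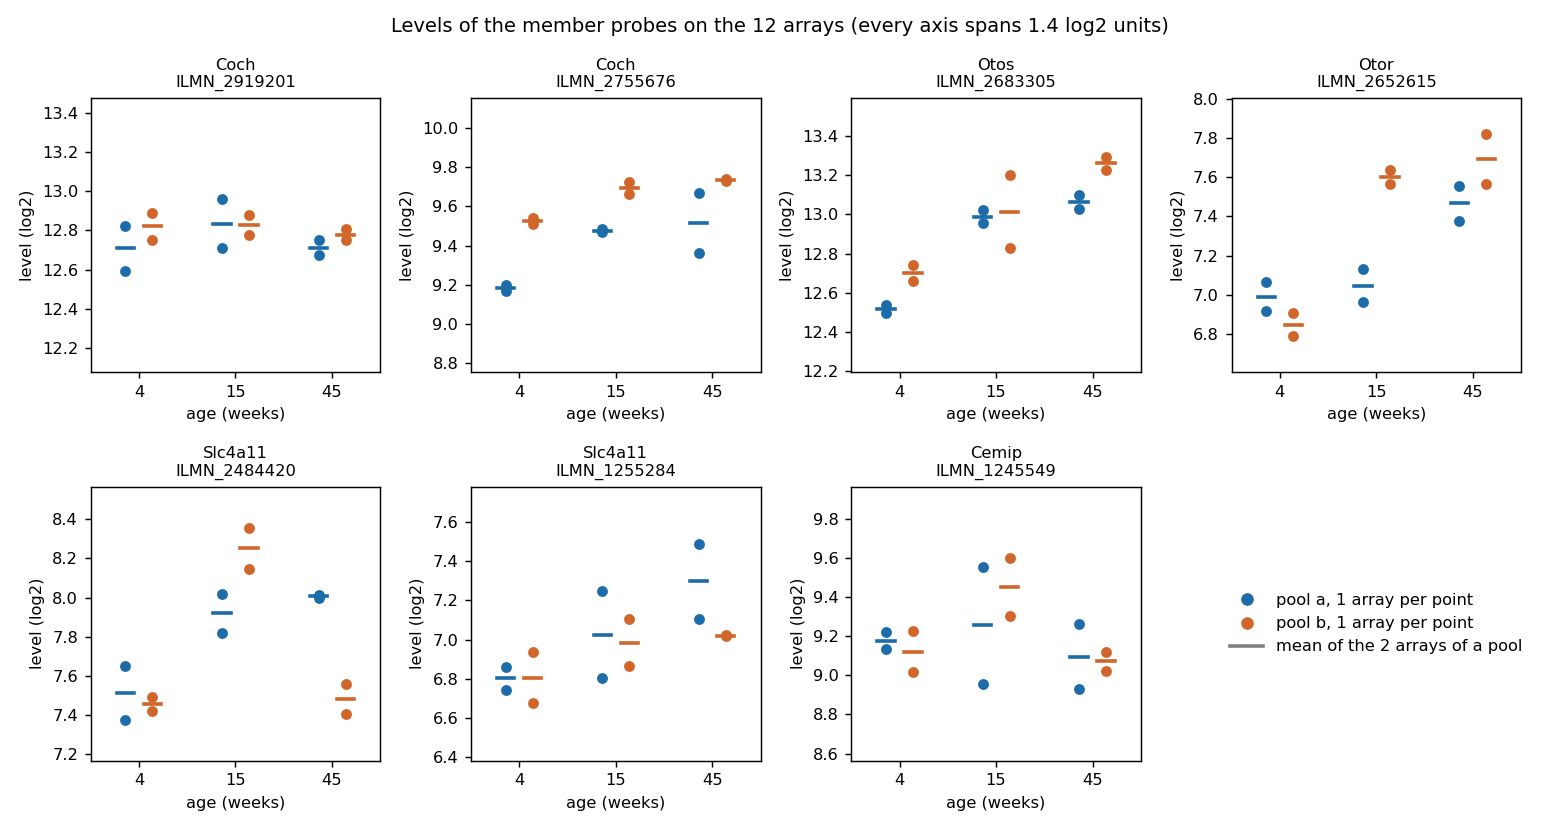
Level (log2) of each tested member probe on every array, by age in weeks as evenly spaced categories. Points are single arrays in 2 colours for pools a and b, and bars are pool means. Otos and Otor at 45 weeks lie above all 4-week points, the brighter Coch probe is level, and the brighter Slc4a11 probe is highest at 15 weeks.

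Slc4a11, the transporter gene, was highest at 15 weeks by its brighter probe. The arrays read 7.65 and 7.38 for pool a and 7.42 and 7.49 for pool b at 4 weeks, and 7.82 and 8.02 for pool a and 8.36 and 8.15 for pool b at 15 weeks. At 45 weeks the arrays of pool a averaged 8.01 and lay 0.02 apart, while pool b read 7.40 and 7.56. Every 15-week array thus lay above every 4-week array, while the 45-week pools split, pool a at the 15-week level and pool b at the 4-week level. Of the 45-week pools, a read as male and b as female, and both 15-week pools read as male. The 4-week pools also differed in this reading, and their means lay 0.06 apart. The part of sex in the split was not tested beyond the fit with Xist as a covariate.

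The brighter Slc4a11 probe averaged 7.49 ± 0.04 at 4 weeks, 8.09 ± 0.23 at 15 weeks and 7.74 ± 0.37 at 45 weeks (SD, n = 2 each). The 15-week level exceeded the 4-week level by 0.60 (SE 0.20, 95% interval 0.13 to 1.08), or 1.52-fold (1.09 to 2.11). This difference ranked 79 among the increases of all probes tested and did not pass limma's test (adjusted p = 1.00). Without the 15-week pool b the difference was 0.44, and without the 15-week pool a 0.77. With the Xist level as a covariate it was 0.47 (limma adjusted p = 1.00). The difference of 45 minus 15 weeks was -0.34 (SE 0.20, limma adjusted p = 0.667). It was -0.079 without the 45-week pool b, -0.18 without the 15-week pool b and -0.60 without the 45-week pool a. The difference of 45 minus 4 weeks, 0.26 (SE 0.20, limma adjusted p = 0.602), was -0.0038 without the 45-week pool a and 0.52 without the 45-week pool b.

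The dimmer Slc4a11 probe, annotated to the same RefSeq transcript, had its highest mean at 45 weeks. Its pools lay at 6.80 and 6.81 at 4 weeks, 7.03 and 6.98 at 15 weeks and 7.30 and 7.02 at 45 weeks. The difference of 45 minus 15 weeks was 0.15 (SE 0.13, limma adjusted p = 0.763), and it was 0.016 without the 45-week pool a and 0.29 without the 45-week pool b. The difference of 45 minus 4 weeks was 0.36 (SE 0.13, limma adjusted p = 0.322), with all 4 arrays at 45 weeks above those at 4 weeks, and it was 0.22 without the 45-week pool a. The arrays of pool a differed by 0.44 at 15 weeks (7.25 and 6.80) and by 0.38 at 45 weeks (7.49 and 7.11). Both gaps exceeded every difference between ages at this probe, that of 45 minus 4 weeks included.

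Cemip was read by 1 probe above the filter. The arrays read 9.22 and 9.14 for pool a and 9.02 and 9.22 for pool b at 4 weeks. At 15 weeks they read 8.96 and 9.55 for pool a and 9.30 and 9.60 for pool b, and at 45 weeks 8.93 and 9.26 for pool a and 9.12 and 9.02 for pool b. The gap of 0.59 within the 15-week pool a exceeded every difference between ages. The pools averaged 9.15 ± 0.04, 9.35 ± 0.14 and 9.08 ± 0.02 at 4, 15 and 45 weeks (SD, n = 2 each). The difference of 15 minus 4 weeks was 0.20 (SE 0.12, limma adjusted p = 1.00), that of 45 minus 15 weeks was -0.27 (SE 0.12, limma adjusted p = 0.608) and that of 45 minus 4 weeks was -0.07 (SE 0.12, limma adjusted p = 0.843). The first was 0.012 with technical array 1 of each pool alone and 0.39 with technical array 2 alone, and the second -0.11 and -0.43. Without the 15-week pool b they were 0.11 and -0.17. The 2 dim Cemip probes read 5.39 to 5.79 on all arrays.

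Counted together, none of the 7 tested member probes was called in any comparison, as none of the 22640 probes tested was (0%). Shares of all probes, here and below, are shares of these 22640. Of the 7, 2 had an unadjusted p under 0.05 and were higher at 15 than at 4 weeks (Otos and the brighter Slc4a11 probe), against 0.667% of all probes. Between 45 and 4 weeks 3 were higher at that level (Otos, Otor and the dimmer Slc4a11 probe), against 6.65%, and none was lower, against 7.21%. Between 45 and 15 weeks there was none, where 4.01% of all probes were higher and 4.14% lower.

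All 7 differences of 15 minus 4 weeks were above 0, against 49.3% of all probes, with a median of 0.23 for the member probes. Of the 7, 6 were higher without overlap of the pools, against 12.8% of all probes, and none was lower, against 13.6%. Without overlap of the arrays 2 were higher, against 1.6%, and none was lower, against 1.74%. Of the differences of 45 minus 4 weeks 5 were above 0, against 49.3%. Here 3 probes were higher without overlap of the pools and 1 was lower, each against 22.5% of all probes. The same 3 were higher without overlap of the arrays, against 8.11%, and none was lower, against 8.06%. Of the differences of 45 minus 15 weeks 4 were above 0, against 49.4%, 1 probe (Otos) was higher without overlap of the pools, against 19.8%, and 2 were lower, against 19.9%. The arrays of these ages overlapped for all 7, where 4.66% of all probes were higher and 4.58% lower without overlap. The mean was higher at each later age for 4 of the 7, against 23.8%. Probes of 1 gene are not independent, and the comparisons share pools. The 5 genes were also chosen with earlier results of these data known, so the counts here and above do not test them against all probes.

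**Figure D3:**
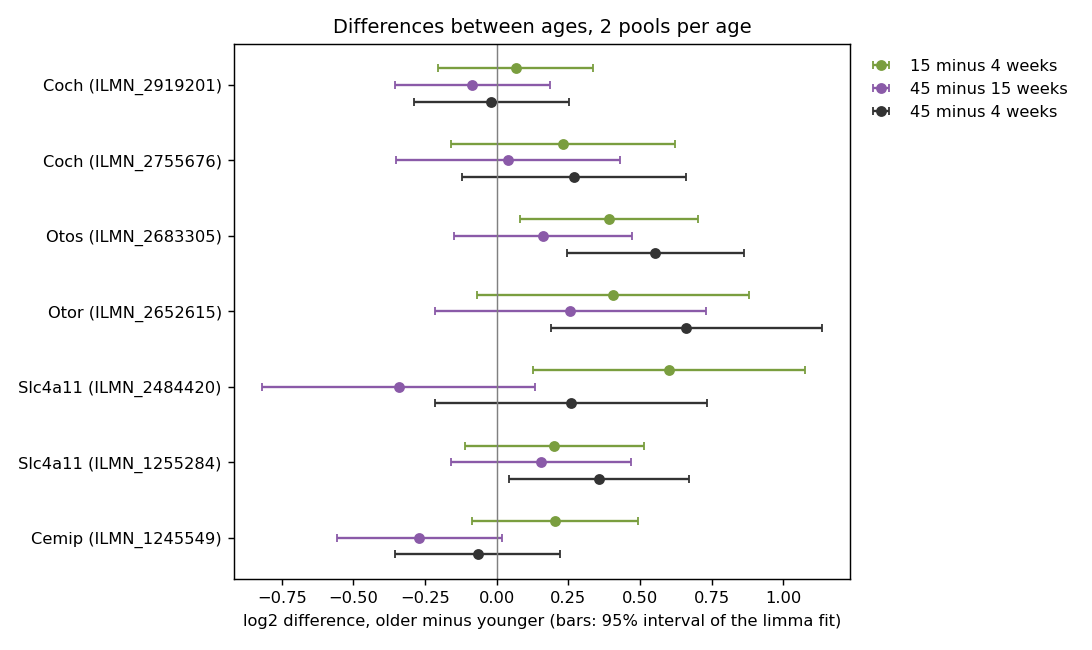
Log2 difference between ages (older minus younger) for each tested member probe, with the 95% interval of the limma fit on 2 pools per age. The intervals of 45 minus 4 weeks lie above 0 for Otos (0.24 to 0.86), Otor (0.19 to 1.13) and the dimmer Slc4a11 probe (0.04 to 0.67), before adjustment over all probes.

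Other genes of spiral ligament and limbus fibrocytes lay on both sides of 0, as the 7 member probes did (5 above and 2 below for 45 minus 4 weeks). Of 24 such genes tested, which include the 4 defining markers, 10 were higher and 14 lower at 45 than at 4 weeks, where 47.1% of all 12595 genes tested were higher, and the median was -0.05 against -0.02 over all genes. None was called, and at an unadjusted p under 0.05 there was 1 higher and 6 lower. Of all probes tested, which were not taken as 1 per gene, 6.65% were higher and 7.21% lower. The 1 higher gene, named after its value was seen, was S100b, which encodes a calcium-binding protein. Its pools read 11.79 and 12.11 at 45 weeks, against 11.08 and 11.71 at 4 weeks, a difference of 0.56 (SE 0.22, limma adjusted p = 0.338). Sox9, a transcription factor gene of otic and cartilage cells, lay at 11.09 and 10.96 in the 45-week pools, against 11.53 and 11.47 in the 4-week pools, a difference of -0.48 (SE 0.13). Slc12a2 lay at 12.33 and 12.34 at 45 weeks, against 12.69 and 12.76 at 4 weeks, a difference of -0.39 (SE 0.11). The differences were -0.38 for Atp1b1, a sodium pump subunit gene, and -0.40 for Igfbp5, a binding protein gene of insulin-like growth factors, and limma's adjusted p was 0.275 to 0.297 for the 4 genes. Between 45 and 15 weeks 7 of the 24 were higher and 17 lower, with a median of -0.15 against -0.01. Whether the fibrocyte list and the 5 genes differ was not tested.

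**Figure D4:**
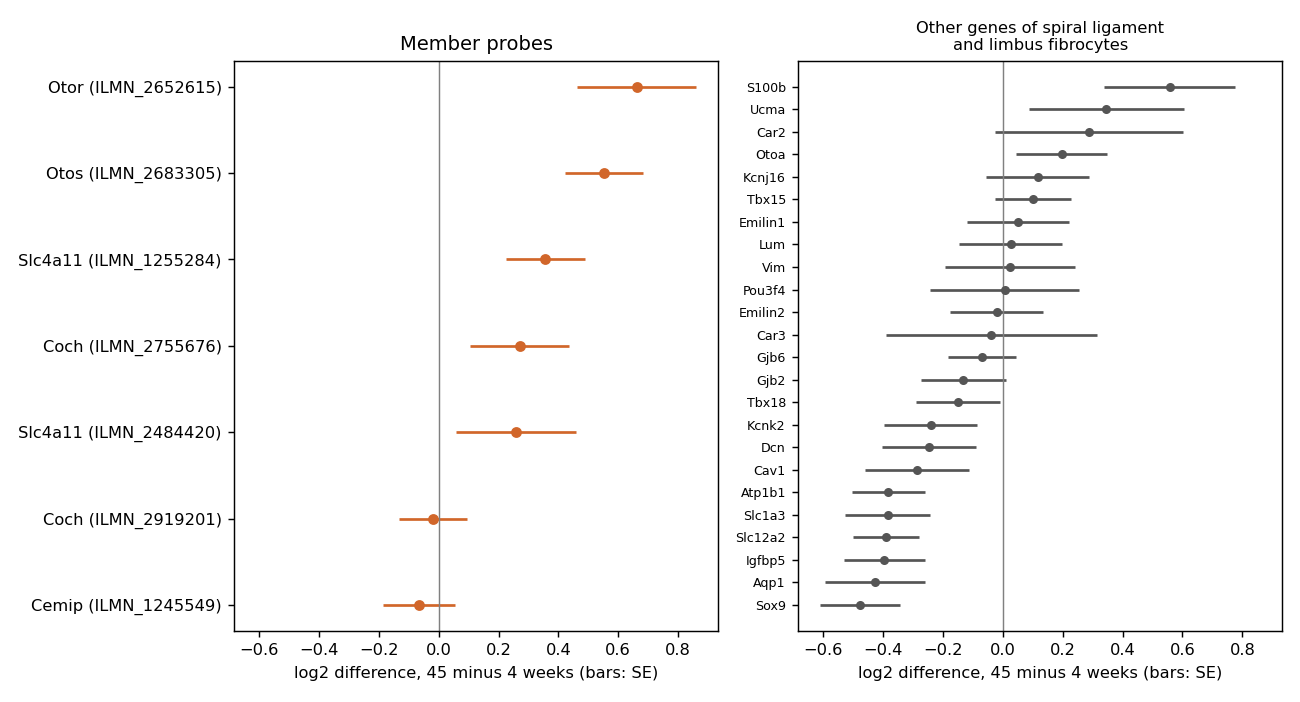
Log2 difference of 45 minus 4 weeks with its SE for the member probes (left) and for 24 other genes of spiral ligament and limbus fibrocytes (right), each by its brightest probe. Otor (0.66) and Otos (0.55) top the left panel, while Sox9 (-0.48) and Slc12a2 (-0.39) are among the 14 genes below 0 on the right.

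Relatives of Coch, Otor and Slc4a11, and for Cemip other hyaluronan genes, were read in the same fit, and none was called. No relatives of Otos were read. Cochlin carries an LCCL domain, and of the 5 other LCCL domain genes tested none was higher at 45 than at 4 weeks, with a median of -0.11. Among them were Crispld2 at -0.22 (SE 0.16) and Vit, which encodes vitrin, at -0.16 (SE 0.12). Otor belongs to the family of Mia, a secreted cartilage protein gene. The Mia pools read 10.45 and 10.52 at 4 weeks, 10.11 and 10.56 at 15 weeks, and 10.69 and 11.06 at 45 weeks. Its differences were 0.54 for 45 minus 15 weeks (SE 0.19, limma adjusted p = 0.606) and 0.39 for 45 minus 4 weeks. The relatives Mia3 and Ctage5 differed by 0.13 and -0.08 between 45 and 4 weeks.

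Among the 5 other transporter genes of the Slc4a11 family, 2 were higher and 3 lower at 45 than at 4 weeks, and all 5 were below 0 for 15 minus 4 weeks, where the brighter Slc4a11 probe was at 0.60. The sodium bicarbonate cotransporter gene Slc4a4 lay at 8.38 and 8.13 in the 45-week pools, against 9.17 and 8.75 in the 4-week pools, a difference of -0.70 (SE 0.18, limma adjusted p = 0.271). Slc4a1, the anion exchanger gene of red cells, differed by -0.52 (SE 0.17, limma adjusted p = 0.294).

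Of the 19 other hyaluronan genes, 9 were higher at 45 than at 4 weeks, with a median of -0.01. Cd44, the main hyaluronan receptor gene, lay at 9.94 and 9.99 in the 45-week pools, against 10.89 and 10.45 in the 4-week pools, a difference of -0.70 (SE 0.18, limma adjusted p = 0.271). Cemip2, the relative of Cemip, differed by -0.62 (SE 0.18, limma adjusted p = 0.277), and Itih5, which encodes a chain of a hyaluronan-binding inhibitor, by -0.35 (SE 0.12, limma adjusted p = 0.301). The hyaluronidase gene Hyal1 read 7.36 and 7.32 at 4 weeks, 7.65 and 7.61 at 15 weeks, and 7.24 and 7.28 at 45 weeks, though the arrays of a pool differed by up to 0.83. Its means were highest at 15 weeks and lowest at 45 weeks, as those of Cemip were.

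Levels of marker genes of other tissues were set beside these results, and none of them was called. The 10 osteoblast and osteocyte genes were all higher at 45 than at 4 weeks, with a median difference of 0.63, and all higher at 15 than at 4 weeks, with a median of 0.34. The averaged level of these genes was 9.57 and 9.70 in the 45-week pools a and b, against 9.17 and 8.72 at 4 weeks. At 15 weeks it was 8.75 for pool a and 9.85 for pool b, the pools that read low and high for Otor. By averaged level, pool b was also above pool a at 15 weeks in the other marker lists. The exceptions were airway epithelium and the defining fibrocyte markers. All 5 pituitary genes tested were higher at 45 weeks, at an averaged level of 8.59 and 9.07, against 5.91 and 5.68 at 4 weeks. The 10 skeletal muscle genes were all lower at 15 than at 4 weeks (median -0.70) and all higher at 45 than at 15 weeks (median 0.81), with averaged pool levels of 9.75 and 10.57 at 4 weeks, 8.59 and 10.11 at 15 weeks and 9.43 and 10.77 at 45 weeks. Between 15 and 4 weeks, where all 7 member probes were above 0, the 5 B lineage genes tested were all higher (median 0.62), and 6 of 7 airway epithelium genes were lower (median -0.84). The 5 stria vascularis genes tested averaged 9.72 and 10.02 at 45 weeks, against 9.64 and 9.57 at 4 weeks, with 4 higher and 1 lower. The part of these tissues in the levels of the 5 genes was not tested.

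Patterns over the 6 pools were compared as a description, by Pearson's r between pool means, over 19208 named probes above the filter. Over these 6 points from 3 ages, 210 probes had an r over 0.9 with Otos, 204 with Otor, 86 with Slc4a11, 68 with Cemip and 38 with Coch. The number that unrelated probes would give over 6 points was not worked out, so the counts do not show a shared pattern. The probes most like Otos were those of Abhd12, a lipid hydrolase gene (r = 0.988), Usp33, a deubiquitinase gene (0.987), and AI837181 (0.986). For Otor they were Cd63, a tetraspanin gene (0.993), Slc39a13, a zinc transporter gene (0.992), and Sema3a, which encodes a secreted axon guidance protein (0.991). For Slc4a11 they were Rab27b, a secretory small GTPase gene (0.993), Upb1 (0.988) and 4930402H24Rik (0.981). For Cemip they were Rasgrp3 (0.997), Ndp, which encodes the secreted ligand norrin (0.984), and Mast2 (0.976). For Coch they were Rad23b (0.987), the nucleoporin gene Nup155 (0.979) and 2700097O09Rik (0.978). The Coch pool means spanned only 12.71 to 12.83, while arrays of 1 pool differed by up to 0.25. Of the probes named, Ndp (5.94), Mast2 (5.98), 2700097O09Rik (5.99) and Rab27b (6.04) had mean levels close to the filter of 5.87. Over the 12 arrays the r of Usp33 with Otos was 0.258, that of Rad23b with Coch 0.303 and that of Rab27b with Slc4a11 0.496. For the other probes named it was 0.675 to 0.919. Between the 5 genes, by the brightest probe of each, r over the pools was 0.822 for Otos and Otor, 0.727 for Slc4a11 and Cemip, and -0.0744 to 0.501 for the other pairs.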

How the data were processed

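Illumina mouse BeadChips measured biotin-labelled cRNA from total RNA of the 12 samples, per the labels' protocols. Values are log2 levels of 45281 probes as the authors deposited them, already normalized between arrays: sorted by size, the 12 columns hold the same numbers. How background was corrected, and with which software, is not stated in the labels or headers. The 24 columns of a second deposited table match no sample label and were not used, so that detection above background was not judged and the number of arrays limits the precision.

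The 2 arrays of a pool were averaged. The 22640 probes with a mean above the median (5.87) entered 1 linear model over the 3 ages in limma 3.58.1 (R 4.3.3), and 3 residual degrees of freedom were joined by 3.84 of the prior. An adjusted p (Benjamini-Hochberg) under 0.05 was called. SD is over pools. The fit was tested on simulated data. Symbols were updated through RefSeq, GRCm38.p6. Gene lists were described by their brightest probes, and up to 4 genes of each list named by smallest p. For each of the 5 genes the 3 probes of highest r were named. Members and lists were chosen with earlier results of these data known. Alternatives covered the filter, the arrays, the pools, the replicate letter, variance, weights, centring, the Xist level and the probes of a gene.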

Additional observations from a re-analysis of the deposited data

How the results depend on the processing

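The 21 differences of member probes were recomputed in 360 alternative values, of which 349 kept their direction, 11 turned and 0 were called. The lowest limma adjusted p was 0.0535, for Otos between 45 and 4 weeks with all 12 arrays and pools as random blocks. Otor had 0.0669 in that fit, which draws on technical repeats and adds no pools. The brighter Coch probe had -0.043 for 15 minus 4 weeks with technical array 1 alone, and for 45 minus 4 weeks 0.0078 with technical array 2 alone and 0.13 as the mean over its probes, and -0.076 to 0.038 without each pool in turn. The dimmer Coch probe had, for 45 minus 15 weeks, -0.020 with technical array 1 alone, -0.064 with the Xist covariate, and -0.069 to 0.15 without each pool. Otor for 45 minus 15 weeks ran -0.023 to 0.54 without each pool, and the brighter Slc4a11 probe for 45 minus 4 weeks -0.0038 to 0.52. The number of probes called, 0 in each comparison, was 2, 6 and 183 with all 12 arrays and pools as random blocks (15 minus 4, 45 minus 15 and 45 minus 4 weeks). It was 1 and 1 in the last 2 with technical array 2 alone, 2 and 2 with a trended robust prior, and 1 between 45 and 4 weeks with these ages alone. Without each pool it was 0 to 12 in each of the last 2, the 12 without pool b at 45 weeks. With the replicate block 0 probes were called in each comparison, so that no call changed, and Otos for 45 minus 4 weeks stayed at 0.55 (adjusted p = 0.312). Samples share only a letter: the difference of pool a minus pool b correlated across probes at -0.112, 0.183 and -0.388 between the pairs of ages. A fit that leaves out a pool has 1 pool at that age, which is assumed to vary like the others.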
